A study of Mus musculus with 10 samples.

Results

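The fatty acid oxidation and ketone genes are 37 genes that carry fatty acids from the blood into the mitochondria of the heart muscle cell, break them down, and pass on the electrons, together with enzymes that burn ketone bodies. They were chosen by name, as a list of pathway members, and each was read on the brightest probe set that carried its symbol alone. On these arrays 36 of the 37 had such a probe set, out of 12384 genes that did. Acsl3, an acyl-CoA synthetase, had none and is not analysed here.

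The adult heart makes most of its ATP from fatty acids. These enter through the membrane transporter CD36 and are bound by the heart fatty acid-binding protein, made into acyl-CoA by synthetases, and moved into the mitochondrion by the carnitine shuttle. There beta-oxidation shortens them in repeated rounds of dehydrogenation, hydration, a further dehydrogenation and thiolytic cleavage. The first dehydrogenation hands its electrons to the electron transfer flavoprotein and on to ubiquinone. Lower transcript levels of these enzymes are a well-known feature of hypertrophied and failing hearts.

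RNA came from ventricles of mice of 3 genotypes, and each extract was hybridised to 1 Affymetrix array. TM175 and TM180 mice carry a transgene for alpha-tropomyosin, a protein of the thin filament, with a different mutation in each line, and NTG mice are nontransgenic controls. The lines are known as models of mild (TM175) and severe (TM180) cardiac hypertrophy. There were 3 TM175 arrays, 4 TM180 arrays and 3 NTG arrays. TM175 array 3, TM180 array 4 and NTG array 3 carried RNA combined from 20 hearts, and the other 7 carried RNA of 1 heart each. Which promoter drove the transgenes, how many founder lines there were, and the age and sex of the mice are not given in the sources used here. The labels name no treatment. Intensities are probe set values on a linear scale, differences are on the log2 scale with the NTG mean subtracted, and precision is set by the small number of arrays.

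Some facts of the arrays touch the results. Pooling was the main axis of variation: on principal component 1, with 47.2% of the variance, the pools scored 30.4 to 40 and the single hearts -32.1 to 3.1. A second model, called extract-adjusted, therefore held extract type (pooled or individual) beside genotype. Folds with 95% intervals come from the model with genotype alone, and counts of called members are given from both models. Tpm1, which encodes alpha-tropomyosin, ranged from 11240 to 13200 over the controls, from 15430 to 16520 over TM175 and from 15590 to 17350 over TM180, a reading that cannot tell mutant from normal transcripts. TM175 array 1 stood apart in genes of the sex chromosomes, with Xist, which is made from the inactive X, at 987.6 against 99.5 to 136 in the remaining single hearts. Its Y-linked Eif2s3y was at 7.23 against 44.7 to 60.8. Nppa, listed here among markers of atrial myocytes, read 521 in this array, 5478 and 3822 in TM175 arrays 2 and 3, and 635 to 906 in the controls. Its Myh7 and Postn, at 6319 and 562, lay above all controls. The pools were at 414 (TM175), 394 (TM180) and 149 (NTG) for Xist. The main TM175 counts are therefore given without TM175 array 1 too, and the part of sex in any difference was not tested.

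Most members lay lower in both transgenic lines than in NTG hearts. The median log2 difference of the 36 genes was -0.33 in TM175 and -0.30 in TM180, which is 0.796-fold and 0.813-fold, while the median of all 22626 probe sets was 0.04 and -0.01. Below 0 lay 30 of 36 members in TM175 and 33 of 36 in TM180, beside 42.1% and 51.5% of all probe sets. Many members are bright: 18 had an NTG mean of 1000 or more, where array medians were 66.7 to 71. Among probe sets above the median level 56.6% lay below 0 in TM175 and 47.9% in TM180. Every TM175 array lay below every NTG array for 20 members, a pattern shown by 8.11% of all probe sets, and every TM180 array did for 17 members, beside 4.19% of all probe sets. In the opposite direction the arrays did not overlap for 3 members in TM175 (8.42% of all probe sets) and 2 in TM180 (5.98%). Without TM175 array 1, 29 of 36 members lay below 0 (43.5% of all probe sets), 22 lay below every control without overlap (10.5%) and 3 above (12.1%). In single hearts alone 22 members lay lower without overlap in TM175 (18.5% of all probe sets) and 22 in TM180 (10.9%). Higher without overlap lay 4 in TM175 (26.7% of all probe sets) and 2 in TM180 (12.9%). Both comparisons use the same 3 NTG arrays, so the counts of the lines are not independent of each other.

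The median lay below 0 within each extract type. Single hearts alone gave -0.26 in TM175 and -0.26 in TM180, and the pools alone gave -0.34 and -0.42. Re-scaling the arrays left both medians below 0, at -0.22 and -0.30 with quantile normalization repeated and at -0.37 and -0.31 with each array centred on its median. Array by array, the median of the 36 members relative to the NTG mean was -0.34, -0.30 and -0.37 in the TM175 arrays, numbered 1 to 3, and -0.15, -0.37, -0.34 and -0.41 in the TM180 arrays, numbered 1 to 4. It was 0.05, -0.04 and -0.01 in the NTG arrays. All 7 transgenic arrays lay below the 3 controls, and TM180 array 1, a single heart, lay closest to them.

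Few of these differences passed the test gene by gene. With genotype alone in the limma model, none of the 36 members was called in TM175 at an adjusted p under 0.05 over all probe sets (0.00884% of all probe sets were called, and 21 members had an unadjusted p under 0.05, as did 13% of all probe sets). In TM180 the same model called 1 member, Hsdl2, which fell (0.504% of all probe sets were called, 0.371% higher and 0.133% lower, and 20 members had an unadjusted p under 0.05, as did 9.35% of all probe sets). The extract-adjusted model called 6 members in TM175, all lower, where 0.862% of all probe sets were called, 0.128% higher and 0.734% lower. They were Acad11, Echs1, Hsd17b4, Hsdl2, Etfdh and Acat1. In TM180 this model also called 6, all lower, where 2% of all probe sets were called, 1.46% higher and 0.535% lower. They were Acot1, Acadm, Acad11, Acaa2, Hsdl2 and Etfdh. No member rose in any of these 4 fits. Leaving out TM175 array 1, the extract-adjusted counts were 1 in TM175 (Hsdl2) and 8 in TM180, of which 7 were lower and 1, Cpt1a, higher, beside 0.0619% and 2.14% of all probe sets.

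**Figure D1:**
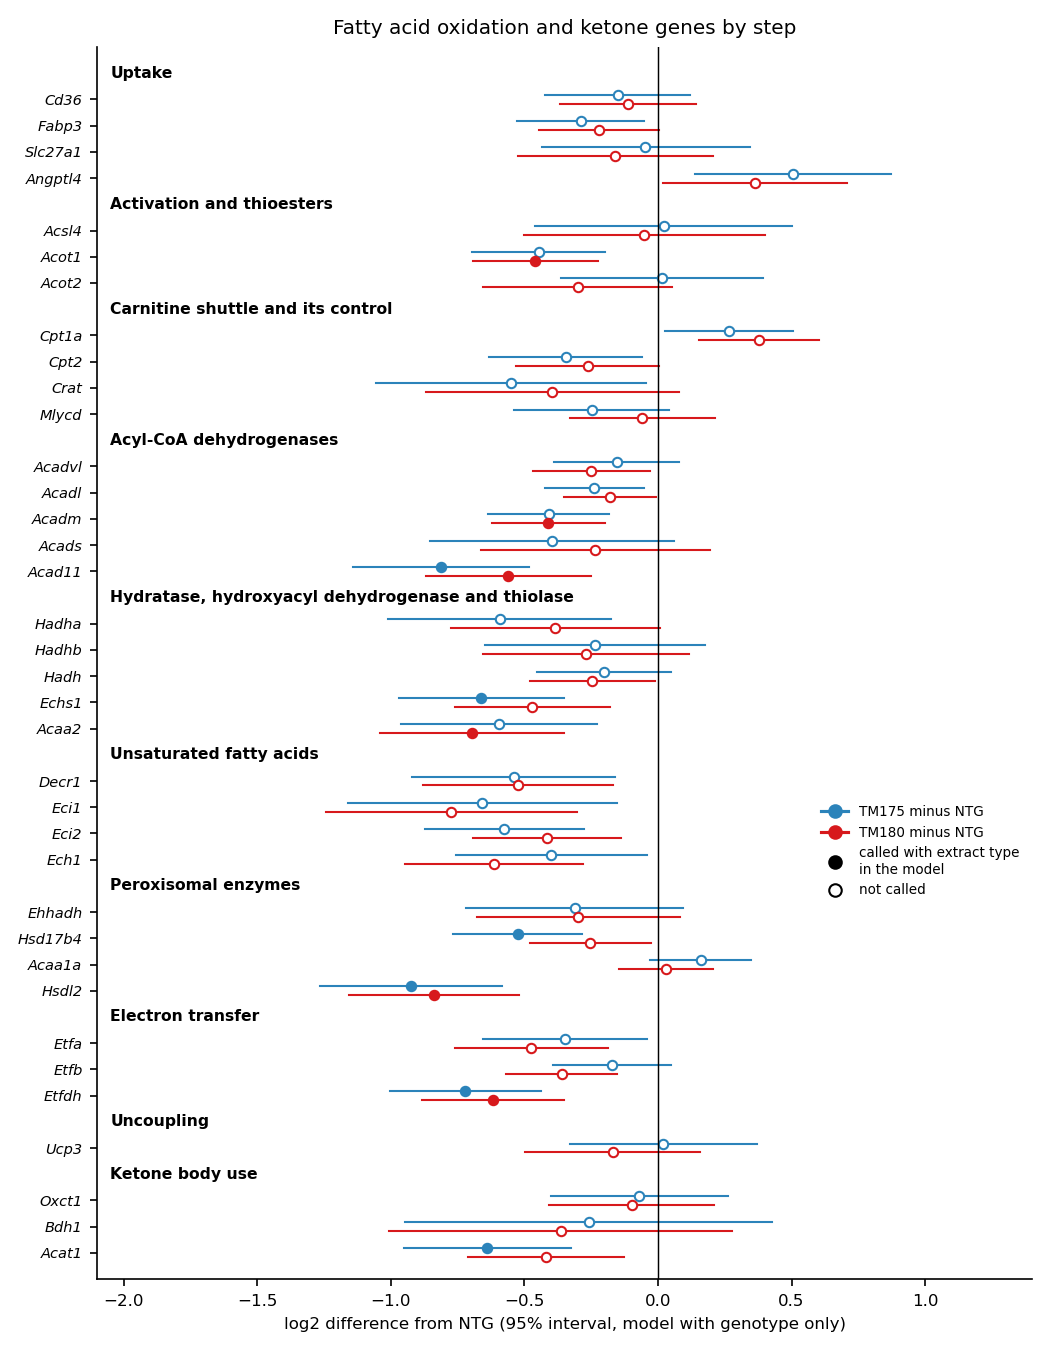
Log2 difference from NTG (horizontal axis) of the 36 measured members, grouped by step, for TM175 (blue) and TM180 (red) with 95% intervals from the limma model with genotype alone; filled points were called in the extract-adjusted model. Most points lie left of 0, with all dehydrogenase, hydratase to thiolase, unsaturated fatty acid and electron transfer members there in both lines. Angptl4, Cpt1a and Acaa1a lie to the right in both lines, and Acsl4, Acot2 and Ucp3 do in TM175 alone.

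The upstream sequences of 3 loci are printed because their genes carry the results below: Hsdl2, the 1 member called with genotype alone, Etfdh, which had the next smallest adjusted p in TM180, and the stretch between the start sites of Hadha and Hadhb, which encode the subunits of the trifunctional protein and lie head to head. They are RefSeq sequences of the mouse build GRCm38.p6, written 5′ to 3′ on the gene's strand, and on the plus strand for the shared stretch. Hsdl2 is at chr4:59581313-59581516 (plus strand), the 204 bases before the annotated gene. Etfdh is at chr3:79628768-79629017 (minus strand), the 250 bases before its start site, and the shared stretch of 272 bases is at chr5:30154981-30155252. Capitals mark the GC box GGGCGG on either strand.
Hsdl2: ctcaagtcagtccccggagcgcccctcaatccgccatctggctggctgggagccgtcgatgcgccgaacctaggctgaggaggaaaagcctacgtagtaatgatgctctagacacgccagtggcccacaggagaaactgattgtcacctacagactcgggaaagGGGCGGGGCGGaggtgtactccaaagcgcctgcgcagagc
Etfdh: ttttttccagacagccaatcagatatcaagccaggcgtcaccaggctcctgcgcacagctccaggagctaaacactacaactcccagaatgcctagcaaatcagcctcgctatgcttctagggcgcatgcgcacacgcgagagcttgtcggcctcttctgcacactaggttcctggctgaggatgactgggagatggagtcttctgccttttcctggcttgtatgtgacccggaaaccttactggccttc
Hadha to Hadhb: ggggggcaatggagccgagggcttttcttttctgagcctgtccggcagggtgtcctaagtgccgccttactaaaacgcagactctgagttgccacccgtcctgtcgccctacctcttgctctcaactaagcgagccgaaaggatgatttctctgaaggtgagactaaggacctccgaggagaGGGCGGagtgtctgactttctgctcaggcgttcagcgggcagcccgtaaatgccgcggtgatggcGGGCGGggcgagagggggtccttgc

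The Hsdl2 stretch held 2 GC boxes, which overlap, the Etfdh stretch none, and the Hadha to Hadhb stretch 2. Nuclear receptors such as the PPARs and ERRs, which are known regulators of this pathway, bind repeats or extended forms of the half-site AGGTCA, so the 250 bases before each start site in the promoter table, for the 31 members it holds, were searched for it on both strands. It was present in 6 of 31 members (19.4%), beside 14% of all 32851 promoters and 14.1% of the genes measured on the arrays. A direct repeat of the half-site with 1 base between, which PPARs bind, was in 0 of 31 members and 0.033% of all promoters, and the extended form TCAAGGTCA in 0 of 31 and 0.387%. The GC box was in 20 of 31 (64.5%), beside 32.7% of all promoters and 57% of genes on the arrays. These matches describe letters in a window and say nothing of binding. The half-sites are shown with their surroundings, on each gene's strand, since they fall in members with very different values below; capitals mark AGGTCA or its complement. In GRCm38.p6 they lie at chr5:17836107-17836136 (minus strand) for Cd36, chr19:3323195-3323224 (plus strand) for Cpt1a, chr11:70015498-70015527 (minus strand) for Acadvl, chr3:153944875-153944893 (minus strand) for Acadm, chr7:140116487-140116516 (minus strand) for Echs1, and chr7:100472830-100472859 (plus strand) and chr7:100472935-100472964 (plus strand) for Ucp3. The Cd36 and Cpt1a sites precede start sites that lie inside the annotated gene.
Cd36: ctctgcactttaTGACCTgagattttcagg
Cpt1a: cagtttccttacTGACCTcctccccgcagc
Acadvl: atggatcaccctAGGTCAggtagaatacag
Acadm: gTGACCTtcgggctccggt
Echs1: accagcccgctcAGGTCAcgggtccacccc
Ucp3, first site: ttaaagagccccAGGTCAcggaagctaaac
Ucp3, second site: gaattaggtttcAGGTCAgctggtgcacag

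Of the 6 members with a half-site, the extract-adjusted model called Acadm and Echs1 lower, each in 1 line, beside 9 of all 36 members. Cpt1a lay above the controls in both lines and was not called with all arrays. Cd36, Acadvl and Ucp3 were not called either. Any link between half-sites and the differences was not tested.

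Among the uptake genes none was called in either line. Cd36, the fatty acid transporter of the cell membrane, read 2512, 2705 and 2512 in TM175 (arrays in order, the pool last, as throughout), 2641, 2605, 3156 and 2248 in TM180, and 2659, 3056 and 2877 in NTG arrays. The groups overlapped, and the folds were 0.900 (95% interval 0.746 to 1.09, adjusted p = 0.614, or 0.448 extract-adjusted) in TM175 and 0.924 (0.775 to 1.1, adjusted p = 0.94, or 0.681) in TM180. Other Cd36 probe sets gave log2 differences of -0.39 and -0.40 in TM175 and -0.26 and -0.26 in TM180. On the first of these both lines lay wholly below the controls (1216 to 1496 in TM175, 1432 to 1492 in TM180, 1652 to 1819 in NTG arrays). On the second they overlapped the controls. Fabp3, the heart fatty acid-binding protein, had the lowest NTG value, 7.37, above the highest value of either line, 6.72 in TM175 and 7.11 in TM180. Whether these Fabp3 values are as written or to be multiplied by 1000 could not be settled, which leaves its differences of -0.29 (adjusted p = 0.312, or 0.148 extract-adjusted) and -0.22 (adjusted p = 0.54, or 0.31) as they are. Slc27a1, a fatty acid transport protein, was at -0.05 and -0.16.

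Angptl4, a secreted inhibitor of lipoprotein lipase, went the other way. It read 228, 184 and 164 in TM175, 154, 221, 179 and 145 in TM180, and 139, 136 and 128 in NTG arrays. All transgenic arrays lay above all controls. The fold was 1.42 in TM175 (1.1 to 1.83, adjusted p = 0.256, or 0.0786 extract-adjusted) and 1.29 in TM180 (1.01 to 1.63, adjusted p = 0.491, or 0.22), so it was not called. A dimmer Angptl4 probe set gave 0.04 and -0.01.

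For activation, 3 of 4 members were measured. Acsl4, an acyl-CoA synthetase that prefers arachidonic acid, was at 0.02 in TM175 and -0.05 in TM180, and its other probe sets lay at -0.10 and 0.40 in TM175 and at 0.21 and 0.30 in TM180. The thioesterases Acot1 (cytosolic) and Acot2 (mitochondrial) hydrolyse acyl-CoA back to free fatty acid. Acot1 was dim, at 26.8, 22.3 and 25.9 in TM175, 26.1, 22.2, 27.6 and 23.3 in TM180, and 33.3, 35.9 and 32.8 in NTG arrays. Every transgenic array lay below every control. Its fold was 0.734 in TM175 (0.617 to 0.873, adjusted p = 0.187) and 0.727 in TM180 (0.618 to 0.856, adjusted p = 0.104). It fell in TM180 by 0.46 in the extract-adjusted model (adjusted p = 0.0431; 0.0385 to 0.177 when 1 array was left out, passing in 3 of 10 fits) and was not called in TM175 (adjusted p = 0.0708). Acot1 and Acot2 are close paralogs, and cross-hybridisation between their probe sets was not tested.

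Acot2 followed the extract more than the genotype. It read 26.7, 26.2 and 34.5 in TM175, 21.4, 22.3, 21.8 and 28.1 in TM180, and 23.2, 29.1 and 34.8 in NTG arrays, and in each genotype the pool, given last, was the highest. Its differences were 0.01 in TM175 and -0.30 in TM180, with neither called. The TM180 to TM175 difference was -0.32 (adjusted p = 0.408, or 0.105 extract-adjusted).

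The carnitine shuttle was divided. Cpt1a, the outer-membrane carnitine palmitoyltransferase that is the minor form of adult muscle and the main form of liver and fetal heart, read 193, 163 and 164 in TM175, 187, 181, 191 and 189.8 in TM180, and 139, 132 and 163 in NTG arrays. All transgenic arrays lay above all controls, although the TM175 pool and the NTG pool differed by only 0.002 on the log2 scale. The folds were 1.2 (1.02 to 1.42, adjusted p = 0.349) in TM175 and 1.3 (1.11 to 1.52, adjusted p = 0.178) in TM180, and the extract-adjusted model gave an adjusted p of 0.18 and an adjusted p of 0.078. In TM180 it passed in 1 of 10 extract-adjusted fits that left out 1 array, the one without TM175 array 1 (adjusted p = 0.0493; range 0.0493 to 0.217). Its other probe sets gave 0.12 and 0.02 in TM175 and 0.16 and 0.03 in TM180.

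Cpt2, the inner-membrane partner, lay below 0 at -0.35 (adjusted p = 0.313, or 0.12 extract-adjusted) and -0.26 (adjusted p = 0.544, or 0.23). Crat, carnitine acetyltransferase, was at -0.55 and -0.40 with wide intervals, and a second Crat probe set lay at 0.29 and -0.07. Mlycd, which removes malonyl-CoA, the inhibitor of Cpt1, was at -0.25 and -0.06. None of these was called in either model.

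All 5 acyl-CoA dehydrogenases, which open each round of beta-oxidation, lay below 0 in both lines, with medians of -0.40 in TM175 and -0.25 in TM180. Acadvl, for very long chains, read 2919, 3236 and 3158 in TM175, 3367, 2684, 2818 and 2798 in TM180, and 3542, 3574 and 3255 in NTG arrays. TM175 lay wholly below the controls and TM180 overlapped them, with differences of -0.16 (adjusted p = 0.546, or 0.395 extract-adjusted) and -0.25 (adjusted p = 0.436, or 0.241). Acadl, for long chains, was at -0.24 and -0.18, and Acads, for short chains, at -0.40 and -0.24.

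Acadm, the medium-chain dehydrogenase, had the tightest controls of the step. The NTG arrays read 3649, 3581 and 3577, the TM175 arrays 2915, 2772 and 2464, and the TM180 arrays 2962, 2438, 2788 and 2673. Every transgenic heart or pool lay below the lowest control. The fold was 0.752 in both lines (0.643 to 0.88 in TM175 and 0.65 to 0.871 in TM180), with adjusted p of 0.185 and 0.107. Acadm fell in TM180 by 0.42 in the extract-adjusted model (adjusted p = 0.04; 0.045 to 0.216 when 1 array was left out, passing in 3 of 10 fits) and was not called in TM175 (adjusted p = 0.0629).

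Acad11, a dehydrogenase with a broad range of substrates that includes hydroxylated acids, had the largest differences of the step. It read 353, 465 and 299.6 in TM175, 458, 399, 475 and 419 in TM180, and 683, 649 and 602 in NTG arrays. No transgenic array reached the lowest control. The fold was 0.569 in TM175 (0.453 to 0.715, adjusted p = 0.132) and 0.678 in TM180 (0.548 to 0.840, adjusted p = 0.137). In the extract-adjusted model Acad11 fell in both lines, by 0.81 ± 0.13 (SE, adjusted p = 0.031) in TM175 and 0.58 ± 0.12 (SE, adjusted p = 0.0269) in TM180. It passed in 5 and 4 of 10 fits that left out 1 array (adjusted p of 0.014 to 0.183 and of 0.0146 to 0.165). A second Acad11 probe set gave -0.89 and -0.55.

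The enzymes from the hydratase to the thiolase also lay below 0, 5 of 5 in both lines, with medians of -0.59 and -0.39. Hadha and Hadhb form the trifunctional protein, which carries out the last steps on long chains. Hadha read 1671, 1842 and 1376 in TM175, 2344, 1893, 1645 and 1671 in TM180, and 3028, 2505 and 1915 in NTG arrays. TM175 lay below all controls, TM180 overlapped them, and in every genotype the pool was at or near the bottom. The folds were 0.663 (0.496 to 0.886, adjusted p = 0.245, or 0.0547 extract-adjusted) and 0.766 (0.584 to 1, adjusted p = 0.543, or 0.132). Hadhb, transcribed from the other side of the shared stretch, was at -0.24 and -0.27, and its pools too were the lowest of each genotype. Hadh, the short-chain hydroxyacyl dehydrogenase, was at -0.20 and -0.25 on its brightest probe set, whereas another of its probe sets gave -0.56 and -0.36 and fell in TM175 in the extract-adjusted model (adjusted p = 0.036).

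Echs1, the short-chain enoyl-CoA hydratase, read 1136, 1359 and 1031 in TM175, 1617, 1327, 1182 and 1243 in TM180, and 1986, 1724 and 1837 in NTG arrays. Both lines lay wholly below the controls. The folds were 0.633 (0.51 to 0.784, adjusted p = 0.161) and 0.722 (0.591 to 0.882, adjusted p = 0.193). Echs1 fell in TM175 by 0.66 in the extract-adjusted model (adjusted p = 0.0434; 0.0244 to 0.199 when 1 array was left out, passing in 4 of 10 fits), while in TM180 the adjusted p was 0.0677.

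Acaa2, a mitochondrial thiolase, read 1805, 2043 and 1788 in TM175, 2345, 1464, 1760 and 1539 in TM180, and 3188, 2620 and 2715 in NTG arrays. The groups did not overlap with the controls, and TM180 array 1 was the nearest to them. The folds were 0.663 (0.514 to 0.854, adjusted p = 0.207) and 0.617 (0.486 to 0.783, adjusted p = 0.0917). Acaa2 fell in TM180 by 0.71 in the extract-adjusted model (adjusted p = 0.0254; 0.00356 to 0.155 when 1 array was left out, passing in 5 of 10 fits). In TM175 the adjusted p was 0.0737 on this probe set. Other Acaa2 probe sets gave -1 and -0.78 in TM175 and -0.90 and -0.70 in TM180, and in the extract-adjusted model the first of these fell in both lines (adjusted p of 0.0472 and 0.0277) and the second in TM180 (adjusted p = 0.0436).

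Unsaturated chains need auxiliary enzymes, and these formed the step with the lowest median in TM180 and the second lowest in TM175 among steps of several genes, -0.57 and -0.56. For each of the 4 genes every transgenic array of both lines lay below every control. Decr1, the dienoyl-CoA reductase, read 954.8, 1080 and 1192 in TM175, 1367, 839, 1168 and 1024 in TM180, and 1788, 1452 and 1455 in NTG arrays. Its folds were 0.688 (0.529 to 0.895, adjusted p = 0.244, or 0.108 extract-adjusted) and 0.695 (0.543 to 0.889, adjusted p = 0.247, or 0.12). A second Decr1 probe set fell in TM180 by 0.73 with genotype alone in the model (adjusted p = 0.0485) and in the extract-adjusted one (adjusted p = 0.0143), and in TM175 by 0.76 in the latter (adjusted p = 0.038). The isomerases Eci1 and Eci2 were at -0.66 and -0.58 in TM175 and at -0.77 and -0.42 in TM180. Ech1, a dienoyl-CoA isomerase, was at -0.40 and -0.61. In the extract-adjusted model Eci2 came closest to a call in TM175 (adjusted p = 0.0519) and Eci1 in TM180 (adjusted p = 0.0529), and none of the 4 was called on its brightest probe set.

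Peroxisomes shorten very long and branched chains, and here the members diverged. Hsdl2, a short-chain dehydrogenase of the hydroxysteroid dehydrogenase family found in peroxisomes, whose substrate is not well established, read 291, 232 and 338 in TM175, 343, 276, 275 and 314 in TM180, and 564, 468 and 589 in NTG arrays. The highest transgenic value lay well below the lowest control. It fell in TM180 to 0.56-fold (0.449 to 0.698) with genotype alone in the model (adjusted p = 0.0385), from 540.2 ± 64.2 (SD, n = 3) to 302 ± 33 (SD, n = 4). In the extract-adjusted model it fell in TM180 by 0.82 ± 0.12 (SE, adjusted p = 0.00627) and in TM175 by 0.92 ± 0.13 (SE, adjusted p = 0.0278), where genotype alone gave an adjusted p of 0.13. Single hearts alone gave -0.99 in TM175 and -0.79 in TM180 (adjusted p = 0.108), and the pools -0.80 and -0.91. A second Hsdl2 probe set gave -1.02 and -0.78.

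The Hsdl2 call in TM180 depended on the arrays when extract type was left out of the model. It passed in 3 of 10 fits that left out 1 array, those without TM175 array 2, TM175 array 3 and TM180 array 1, with adjusted p from 0.0298 to 0.162. Adjusted for extract it passed in all 10 (0.00286 to 0.0454). In TM175 it passed, so adjusted, in 6 of 10 (0.0161 to 0.183), failing without NTG array 1, NTG array 3, TM175 array 3 and TM180 array 4.

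Hsd17b4, the multifunctional enzyme of peroxisomal oxidation, read 262, 319.8 and 291 in TM175, 388, 327, 362 and 327 in TM180, and 446, 406 and 401 in NTG arrays. The groups lay in the order TM175, TM180, NTG without overlap. It fell in TM175 by 0.53 in the extract-adjusted model (adjusted p = 0.0479; 0.0325 to 0.199 when 1 array was left out, passing in 1 of 10 fits) and was not called in TM180 (-0.26, adjusted p = 0.239). Ehhadh, the other bifunctional enzyme, was dim at 12.9, 9.53 and 11.4 in TM175, 12.7, 9.29, 13.4 and 10.3 in TM180, and 13.8, 11.4 and 17 in NTG arrays. The groups overlapped, at differences of -0.31 (adjusted p = 0.483, or 0.309 extract-adjusted) and -0.30 (adjusted p = 0.703, or 0.467). Acaa1a, a peroxisomal thiolase, lay at 0.16 in TM175, where every array was above every control, and at 0.03 in TM180.

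Electron transfer followed the dehydrogenases. The 3 genes lay below 0 in both lines, and for each of them no transgenic array reached the lowest control. Etfdh encodes the membrane enzyme that passes electrons from the flavoprotein to ubiquinone. It read 893, 1019 and 929 in TM175, 1063, 884, 989 and 1144 in TM180, and 1603, 1347 and 1752 in NTG arrays. The folds were 0.607 (0.499 to 0.738, adjusted p = 0.132) and 0.652 (0.542 to 0.783, adjusted p = 0.0567), and thus not called with genotype alone. In the extract-adjusted model Etfdh fell in TM175 by 0.72 ± 0.11 (SE, adjusted p = 0.031; passing in 5 of 10 fits that left out 1 array) and in TM180 by 0.61 ± 0.11 (SE, adjusted p = 0.0143; passing in 7 of 10). The adjusted p ran from 0.0161 to 0.183 and from 0.0176 to 0.108 in these fits.

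Etfa and Etfb encode the subunits of the flavoprotein itself. Etfa read 2560, 2302 and 1921 in TM175, 2254, 1694, 2302 and 2035 in TM180, and 2767, 2954 and 2853 in NTG arrays, with folds of 0.786 (0.635 to 0.972, adjusted p = 0.343, or 0.158 extract-adjusted) and 0.72 (0.59 to 0.878, adjusted p = 0.184, or 0.0689). Etfb read 3944, 4061 and 4146 in TM175, 4076, 3267, 3439 and 3475 in TM180, and 4770, 4456 and 4470 in NTG arrays. Its differences were -0.17 (adjusted p = 0.477, or 0.326 extract-adjusted) and -0.36 (adjusted p = 0.153, or 0.077), and TM180 lay below TM175 by -0.19 (adjusted p = 0.401). Neither subunit was called.

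Ucp3, the mitochondrial uncoupling protein of muscle, did not separate the genotypes. It read 134, 99.6 and 100.4 in TM175, 109.6, 84.6, 99.7 and 94.8 in TM180, and 96.8, 101 and 132 in NTG arrays. The differences were 0.02 (adjusted p = 0.969, or 0.952 extract-adjusted) and -0.17 (adjusted p = 0.904, or 0.687), and the sign in TM175 turned on a second probe set (-0.18).

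**Figure D2:**
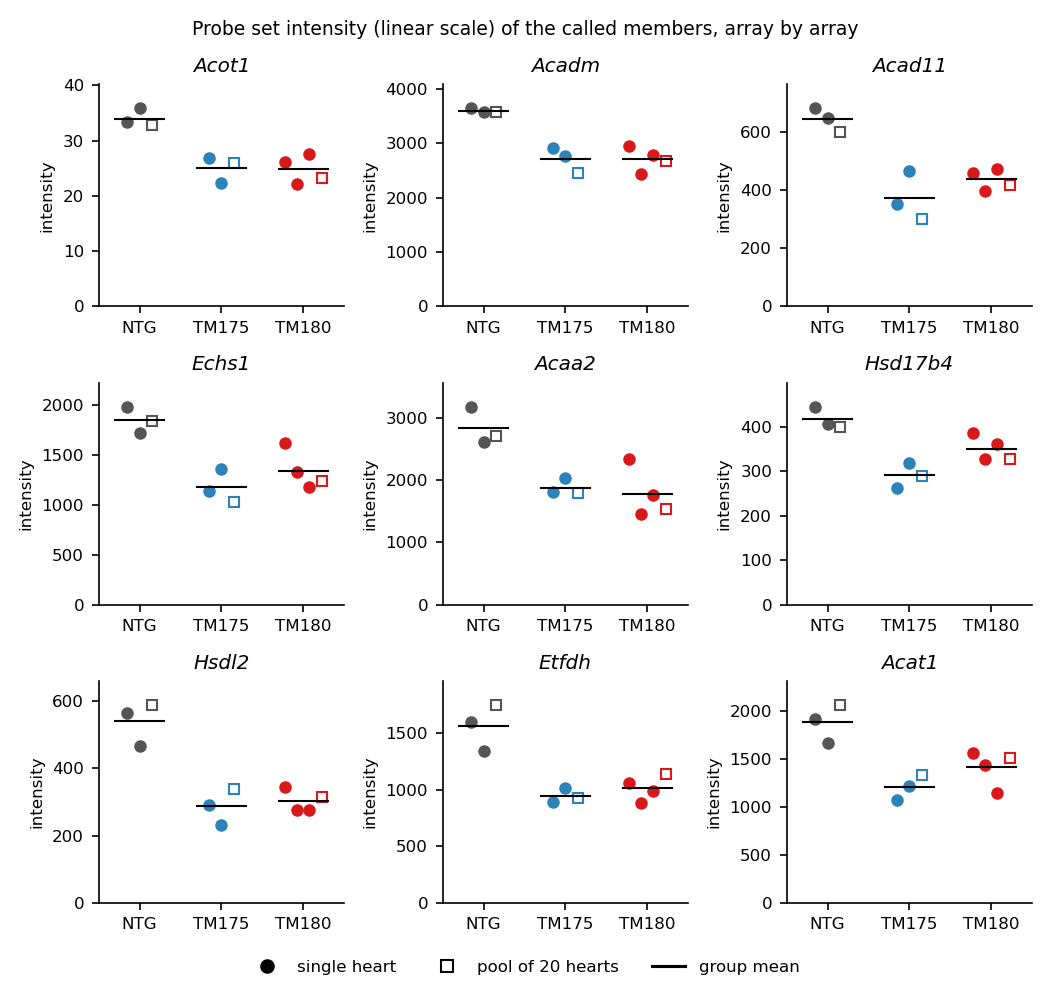
Probe set intensity (vertical axis, linear scale from 0) of the 9 members called in TM175 or TM180 in the extract-adjusted model, 1 point per array; filled circles are single hearts, open squares pools of 20 hearts and horizontal lines group means. In each panel all transgenic arrays lie below the lowest of the 3 NTG arrays.

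Ketone genes were mixed. Oxct1, the succinyl-CoA transferase that commits ketone bodies to oxidation in the heart, read 2112, 2650 and 3078 in TM175, 2643, 2173, 2907 and 2463 in TM180, and 2932, 2593 and 2619 in NTG arrays. The groups overlapped, and the folds were 0.953 (0.758 to 1.2, adjusted p = 0.863, or 0.798 extract-adjusted) and 0.934 (0.754 to 1.16, adjusted p = 0.978, or 0.836). A second probe set gave -0.14 in TM175 and 0.04 in TM180. Bdh1, the mitochondrial beta-hydroxybutyrate dehydrogenase, was at -0.26 and -0.37 with the widest intervals of all members.

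Acat1, the acetoacetyl-CoA thiolase shared by ketone use and isoleucine breakdown, differed from these. It read 1076, 1218 and 1338 in TM175, 1568, 1437, 1144 and 1510 in TM180, and 1920, 1668 and 2067 in NTG arrays, without overlap between transgenic and control arrays. The folds were 0.642 (0.518 to 0.797, adjusted p = 0.168) and 0.748 (0.611 to 0.915, adjusted p = 0.264). Acat1 fell in TM175 by 0.64 in the extract-adjusted model (adjusted p = 0.0431; 0.0259 to 0.199 when 1 array was left out, passing in 3 of 10 fits) and was not called in TM180 (adjusted p = 0.103). Its other probe sets gave -0.66 and -0.46 in TM175 and -0.42 and -0.39 in TM180.

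The comparison between the lines asks whether the severe model differed from the mild one. It did not separate them on these genes at this number of arrays. None of the 36 members was called by limma in either model (0% of all probe sets were called, and 0.0265% when adjusted for extract, 0.0221% higher and 0.00442% lower), and 1 had an unadjusted p under 0.05 with genotype alone, as did 13.3% of all probe sets. The differences ran from -0.32 (Acot2) to 0.27 (Hsd17b4) with a median of 0.01, and 18 members lay on each side of 0, beside 55.4% of all probe sets below it. Hsd17b4 was 1.21-fold higher in TM180 than in TM175 (95% interval 1.03 to 1.41, adjusted p = 0.343), with every TM180 array above every TM175 array, which 6.22% of all probe sets showed. Acaa1a showed the opposite order at 0.914-fold (0.808 to 1.03, adjusted p = 0.469), a pattern of 7.37% of all probe sets. The fold of TM180 over TM175 was 1.06 for Hsdl2 (95% interval 0.851 to 1.32), 1.07 for Etfdh (0.894 to 1.29) and 0.999 for Acadm (0.863 to 1.16).

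**Figure D3:**
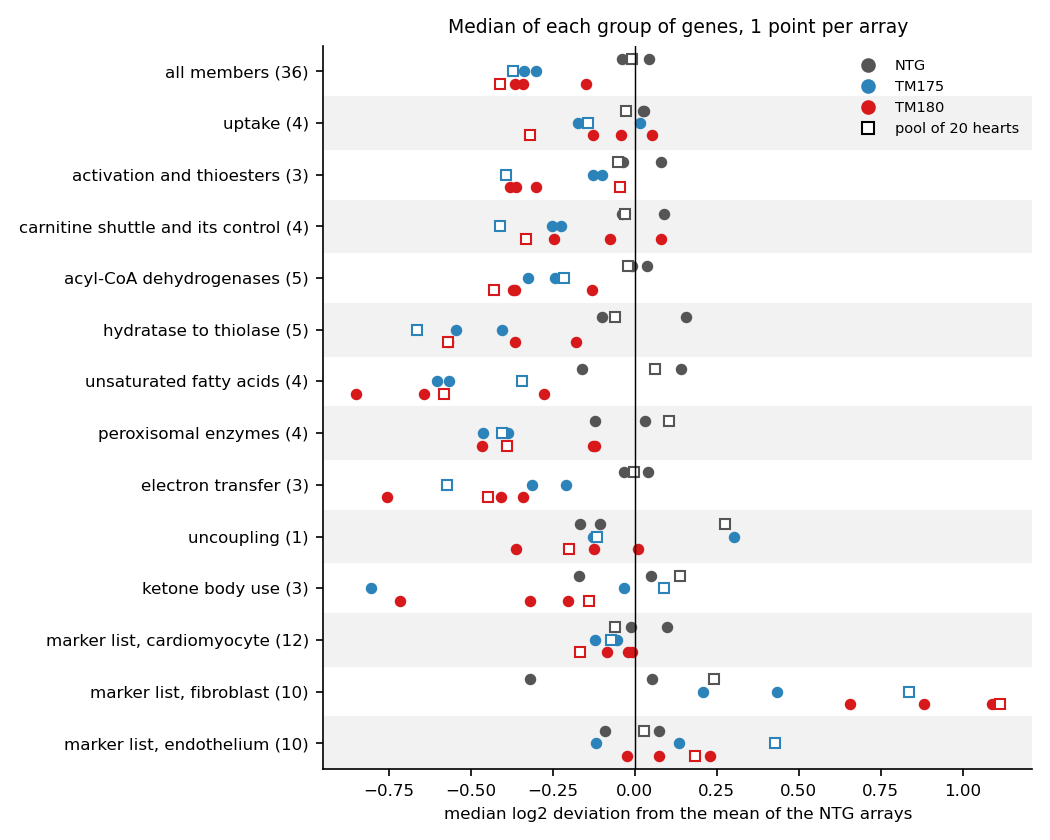
Median log2 deviation from the mean of the NTG arrays (horizontal axis) over each group of genes, 1 point per array, with the number of genes in brackets; open squares are pools of 20 hearts and the lower 3 groups are cell type markers. For all 36 members the 7 transgenic arrays lie between -0.41 and -0.15 and the 3 NTG arrays between -0.04 and 0.05. Cardiomyocyte markers lie between -0.12 and -0.055 in TM175, -0.17 and -0.007 in TM180, and -0.06 and 0.10 in NTG arrays.

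Pooled and individual extracts differed for some members within genotype. With genotype in the model 4 of 36 were called, beside 22.1% of all probe sets (10% higher and 12.1% lower; 58.1% lay below 0). Acot2 rose by 0.39 in the pools (adjusted p = 0.00753), and Hadhb fell by 0.40 (adjusted p = 0.0148), Hadha by 0.36 (adjusted p = 0.0429) and Mlycd by 0.26 (adjusted p = 0.0337), by limma. Hsdl2, Etfdh, Acad11, Acaa2 and Acadm were not among them.

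Further genes of the pathway, from a list of 71 of which 59 were measured, lay lower by less. In TM175 44 of 59 were below 0 (42.1% of all probe sets), with a median of -0.21. Without TM175 array 1, 45 were (43.5% of all probe sets). In TM180 43 of 59 were below 0 (51.5% of all probe sets), with a median of -0.13. With genotype alone in the model 0 were called in TM175 (24 had an unadjusted p under 0.05, beside 13% of all probe sets). In TM180 2 fell, where 0.133% of all probe sets were called lower. The extract-adjusted model called these 2, both lower, in both lines, where 0.734% (TM175) and 0.535% (TM180) of all probe sets were called lower. Without TM175 array 1 it called none in TM175, where 0.0619% of all probe sets were called. Acsl6, an acyl-CoA synthetase, read 55.3, 53 and 51.9 in TM175, 54.2, 43.1, 54 and 45.8 in TM180, and 107, 69.2 and 91.6 in NTG arrays. It fell in TM180 by 0.84 (adjusted p = 0.0385, or 0.0106 extract-adjusted) and in TM175 by 0.72 extract-adjusted (adjusted p = 0.0491). Etfbkmt, which methylates the flavoprotein subunit encoded by Etfb, read 81, 86.2 and 72.4 in TM175, 74.5, 51.8, 86.9 and 61.1 in TM180, and 146, 125 and 147 in NTG arrays. It fell in TM180 by 1.04 (adjusted p = 0.026, or 0.00563 extract-adjusted) and in TM175 by 0.80 extract-adjusted (adjusted p = 0.0489). By subgroup, the median in TM175 and TM180 was -0.32 and -0.34 for 14 other mitochondrial oxidation genes, -0.37 and -0.13 for 17 other peroxisomal genes, -0.10 and -0.02 for 16 other synthetases and thioesterases, -0.06 and -0.08 for 9 other uptake and carnitine genes, and 0.02 and 0.02 for 3 other ketone enzymes.

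Cell type markers were read beside the members, since in whole ventricle fewer cells of a type and less RNA per cell cannot be told apart. The 12 cardiomyocyte markers, all measured, had medians of -0.08 in TM175 and -0.06 in TM180 and 0 of 12 were called in either line (2 and 0 had an unadjusted p under 0.05, beside 13% and 9.35% of all probe sets). The summed intensity of the 11 with a settled level, all but Actc1, was 72900 to 78110 in TM175, 72260 to 80130 in TM180 and 77020 to 84820 in NTG arrays. The members, 35 with a settled level, summed to 44530 to 47530 in TM175, 41590 to 51370 in TM180 and 56010 to 60910 in NTG arrays. These member sums did not overlap between transgenic and control arrays, and those of the myocyte markers did. The myocyte sum weighs its brightest probe sets most, Mb (11510 to 14270 over all arrays), Myl3 (9855 to 10990) and Myl2 (9757 to 10760). Whether signals this bright still follow the amount of RNA was not tested. In TM175 10 of the 12 myocyte markers lay below 0, beside 42.1% of all probe sets and 56.6% of those above the median level. Myh6, Tnni3 and Ryr2 lay wholly below the controls in TM175 and overlapped them in TM180. Fibroblast markers moved the other way, with medians of 0.57 and 0.93 over 10 genes. With genotype alone 1 rose in TM175 and 4 in TM180 (0.00884% and 0.371% of all probe sets were called higher). Extract-adjusted, 2 and 7 rose (0.128% and 1.46% of all probe sets). Without TM175 array 1, 0 and 1 rose in TM175 in these models (0.00884% and 0.0177%). The fibroblast marker sums were 7525 to 11530 in TM175, 9550 to 14290 in TM180 and 5158 to 7748 in NTG arrays. Endothelial markers had medians of 0.12 and 0.13. Of 9 adipocyte markers 7 were measured, with medians of 0.16 and 0.10, and Adipoq, which defines these cells, read 20.6 to 44.3 in all arrays. Macrophage markers had medians of -0.15 and 0.04, smooth muscle and pericyte markers 0.15 and 0.30, skeletal muscle markers 0.04 and -0.04, atrial markers 0.23 and 0.76 and red blood cell markers 0.23 and 0.003, among which limma with genotype alone called 1, Nppa, higher in TM180. Of the other atrial markers Sln, Myl4 and Myl7 overlapped the controls in both lines, and Dkk3 lay wholly above them in both. The part of cell composition in the members' differences was not tested.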

How the data were processed

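Per the submitters' processing notes, the authors summarised the arrays with RMA (version not given in the sources used here), and what they deposited are linear intensities, 1 per probe set and array. Deposited intensities from 1000 upward were written with a point as separator (a value of this size then reads as a small decimal number), and this was undone for 7878 of 226900 values, in 1061 probe sets. For 227 probe sets, Fabp3's among them, the factor of 1000 could not be settled, and their values were kept as written. After setting aside 64 controls, log2 intensities of 22626 probe sets entered limma 3.58.1 (R 4.3.3; functions lmFit and eBayes) with all 10 arrays and 1 mean per genotype. Calls needed a p-value under 0.05 after Benjamini-Hochberg adjustment across all 22626. Extract type was added in a second model. Adjusted p-values are limma's throughout, tests are two-sided, and ± in differences is the standard error. Intervals are 95% intervals of ratios of geometric means.

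The reading of the mark and the fits were run on simulated data made from the values as read here. Such runs cannot show whether those values were read rightly. Gene names came from the platform annotation and RefSeq (GRCm38.p6 for sequences). Python 3.11.15, pandas 2.3.3 and matplotlib 3.10.9 were used. The members and lists were chosen with earlier results of these data known. Members are described in full when called in either model, when among the 3 smallest unadjusted p of a comparison, or when first in their step; Angptl4 was added after its values were seen. Whether the pools include the hearts measured alone, and how single hearts relate beyond genotype, is not stated, so p-values measure the spread between these extracts. Alternatives are given in the closing section; the counts of non-overlapping arrays in single hearts alone, list counts without TM175 array 1 and the signs of all members' second probe sets were added after seeing the data.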

Additional observations from a re-analysis of the deposited data

Results flagged for a closer look

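Among the 4 TM180 arrays, 2 of the 36 members had 1 array far from the other 3 by Dixon's ratio, the gap to the nearest array over the whole range, which has a critical value of 0.829 for groups of this size. Chance flags about 1 in 20 such groups, so 2 of 36 is near what chance gives. Acot2, the mitochondrial thioesterase, had a ratio of 0.849, with TM180 array 4 (the pool) at 28.1 and the single hearts at 21.4 to 22.3. Bdh1, the beta-hydroxybutyrate dehydrogenase, had a ratio of 0.857, with TM180 array 3 at 468.5 and the others at 739.8 to 799.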

How the results depend on the processing

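The number of called members depended on the model more than their direction did. In TM175 it was 0 with genotype alone, 6 with extract type in the model, 17 with array weights (where 23.7% of all probe sets were called) and 2 with the mean of each gene's probe sets (0.0649% of genes). In TM180 it was 1, then 6 with extract type, 9 with array weights (3.33% of all), 4 with the mean of a gene's probe sets (0.99%), 2 with quantile normalization repeated (0.544%), 2 among probe sets above the median level (1.39%), and 0 with single hearts alone (0.194%), with 50 added before log2 (0.256%) or at an adjusted p under 0.01 (0.0486%). Whether replicate numbers pair the arrays is not stated. Deviations of same-numbered arrays correlated at -0.141 to 0.441 between single hearts. They correlated at 0.709 between pools, and at -0.509 and -0.489 between a pool and a single heart. Arrays of different numbers were not compared, so these values cannot decide whether the arrays are paired. With the replicate number as a block the TM180 count was 0 (0.141% of all), the Hsdl2 adjusted p being 0.062. Leaving out 1 array with genotype alone gave 0 in TM175 throughout and 0 to 3 in TM180, and with extract type 0 to 9 in TM175 (0 without NTG array 1, NTG array 3, TM175 array 3 or TM180 array 4) and 1 to 8 in TM180 (1 without NTG array 1, NTG array 3 or TM180 array 4). Between the lines it was 0 in all 20 such fits. For pools against single hearts the count was 4, with 2 above the median level (17% of all), 1 at an adjusted p under 0.01 (8.03%), 2 among settled probe sets that never reach 1000 (23.5%), and 1 to 4 with 1 array left out.

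The member median stayed below 0 in every setting run. In TM175 it was -0.33, then -0.22 with quantile normalization repeated, -0.24 with 50 added and -0.15 in settled probe sets that never reach 1000. In TM180 it was -0.30, then -0.21 in those probe sets and -0.42 in the pools alone. With 1 array left out it ran from -0.37 to -0.29 and from -0.37 to -0.27.

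Some uncalled differences turned sign. Among the members described in full these were, between the lines, Acot1 (0.043 in single hearts, 0.015 with the block), Acadm (0.005 with the block), Acaa2 (0.10 on a second probe set) and Oxct1 (0.11 in single hearts, 0.17 on a second probe set). Against NTG they were Ucp3 in TM175 (-0.18) and Oxct1 in TM180 (0.035), each on a second probe set. Over all 19 members with a second probe set, the sign turned on it for 4 in TM175 (also Crat, from -0.55 to 0.29, Acadl and Acsl4), 3 in TM180 (also Angptl4, from 0.36 to -0.01, and Acsl4) and 9 between the lines. Some signs also turned with 1 array left out, in either model. Between the lines the values then ran over a range for Cd36 (-0.047 to 0.116), Acot1 (-0.114 to 0.041), Acadm (-0.07 to 0.052), Decr1 (-0.098 to 0.137), Ehhadh (-0.102 to 0.156), Hsdl2 (-0.06 to 0.212), Oxct1 (-0.174 to 0.114), and in TM175 for Acot2 (-0.139 to 0.155), Ucp3 (-0.144 to 0.197), Oxct1 (-0.217 to 0.075).

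The arrays, 3 or 4 per genotype, limit what can be called, Acot1, Acot2, Acsl4 and Ehhadh are dim, and members with values of 1000 or more rest on the reading of the separator.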
